A study of Mus musculus with 32 samples.

Results

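The messenger RNAs of the cytosolic ribosomal proteins were followed in mouse cortex and striatum after a stroke model. The members were the genes of all probes of an Illumina MouseRef-8 V2 bead array whose printed name starts with Rpl or Rps and a number, or is Rpsa, Rplp0, Rplp1 or Rplp2, with the S6 kinases (names starting with Rps6k) left out. The rule took 78 of 25697 probes, which belong to 63 genes. Of these, 64 probes of 57 genes were bright enough to be tested, and 63 of the 64 were detected on all 32 arrays. The exception was a dim Rps24 probe (5490446), detected on 22 arrays. Of the 14 probes that were not tested, 13 were detected on 0 arrays and an Rpl29 probe on 1. Rpl14, Rpl17, Rpl3l, Rpl6, Rplp2 and Rps23 had no tested probe.

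All animals were labelled Gpx1-/- (strain label C57/Bl6, 8 to 10 weeks old), so every group, sham included, carried the loss of glutathione peroxidase 1, and no wild-type array was analysed here. The growth protocol instead speaks of male wild-type mice on C57BL/6J, and the labels do not settle this. In the reperfusion groups a suture closed the middle cerebral artery for 2 h and was then withdrawn, and right cortex or right striatum was taken after 2, 8 or 24 h of reperfusion. Sham animals had the anesthetic and the neck incision only. Each of the 8 groups (2 regions, sham and 3 times) held 4 arrays. The labels do not say that the arrays of a group came from separate animals, so p-values measure only the spread between these samples.

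The ribosome has a small 40S subunit, which reads the message, and a large 60S subunit, which joins the amino acids. Each subunit is built from ribosomal RNA and a fixed set of proteins, nearly all of them single copies per particle, and the stalk proteins Rplp0, Rplp1 and Rplp2 recruit elongation factors to the 60S subunit. Most ribosomal protein messages begin with a tract of C and T bases, the 5′ terminal oligopyrimidine (TOP) tract, through which mTORC1 and the LARP1 protein control their translation and stability. In the brain, protein synthesis is known to stop in ischaemic tissue and to recover only where cells survive.

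The start sites of 6 genes that the results turn on are shown because most ribosomal protein messages are known to begin with a TOP tract. Each line gives 70 bases before to 30 bases from the annotated start, on the gene's own strand, from RefSeq annotation of GRCm38.p6. Capitals mark each pyrimidine tract of at least 10 C or T bases. The Rps2 window holds none, and the tracts marked in Rps15a and Rpl31 end before the annotated start.
Rps6 (chr4:86857338-86857437, minus strand): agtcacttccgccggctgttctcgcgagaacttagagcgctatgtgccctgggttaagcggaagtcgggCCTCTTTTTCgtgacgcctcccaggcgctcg
Rpl18 (chr7:45718001-45718100, plus strand): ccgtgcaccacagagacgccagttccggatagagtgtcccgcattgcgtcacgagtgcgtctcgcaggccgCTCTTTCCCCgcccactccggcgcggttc
Rps15a (chr7:118116118-118116217, minus strand): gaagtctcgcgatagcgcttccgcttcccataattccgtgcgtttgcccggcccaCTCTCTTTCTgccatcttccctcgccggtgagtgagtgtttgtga
Rps2 (chr17:24719993-24720092, plus strand): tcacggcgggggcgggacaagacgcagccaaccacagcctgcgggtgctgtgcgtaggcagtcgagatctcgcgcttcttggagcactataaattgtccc
Rpl27a (chr7:109519125-109519224, plus strand): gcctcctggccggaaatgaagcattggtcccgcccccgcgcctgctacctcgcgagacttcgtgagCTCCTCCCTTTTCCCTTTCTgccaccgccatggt
Rpl31 (chr1:39367781-39367880, plus strand): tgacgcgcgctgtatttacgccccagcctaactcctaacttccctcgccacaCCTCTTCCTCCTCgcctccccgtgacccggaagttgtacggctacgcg
Rps6, Rpl18, Rps15a and Rps2 are messages that rose after the stroke, and Rpl27a and Rpl31 (probe 3420189) gave the probes that fell at 24 h in both regions. Promoters were matched for 49 of the 63 member genes (59 entries). Such a tract stood in 25 of 59 member windows (42.4%), against 6105 of all 32851 promoter windows of the same length (18.6%). On the opposite strand the tract stood in 5 member windows (8.47%), against 19.4% of all. The letters CGGAAG, on either strand, stood in 21 member windows (35.6%), against 9.39% of all. Among the genes that rose at 24 h in both regions, 7 of 11 had a promoter entry and 4 of these held a tract. Among the genes that passed in no comparison with sham, 26 of 31 had an entry and 12 held a tract. These are descriptions of letters, and annotated starts can lie some bases away from the true ones.

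Arrays had raw median signals from 60.1 to 92.4 and detected 10701 to 11935 probes each. Gpx1 was detected on all 32 arrays, with group means from 8.85 (cortex sham) to 9.74 (cortex 8 h) log2 units. Where its probe lies in relation to the disrupted part is not given in the sources used here, so it checks no genotype. Tbr1, a marker of cortical excitatory neurons, read 9.68 to 9.97 in sham cortex and 5.44 to 6.61 in sham striatum. The summed signal of 8 tested probes for striatal projection neurons was 4811 to 5978 in sham cortex and 5807 to 7266 in sham striatum, which overlap, and Adora2a of that list was not detected often enough to be tested. Array codes, taken as slides, place 1 sham, 2 h, 8 h and 24 h array of a region on each slide, always at the same place for a group. Place and group therefore cannot be told apart, nor can region and slide. Processed copies of ribosomal protein genes are common in the mouse genome and nearly identical in sequence, and the files hold no probe sequences, so a probe may read such a copy too. Bulk tissue cannot tell fewer cells of a type from less RNA per cell.

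At 24 h of reperfusion more ribosomal protein probes had risen than fallen in each region, by modest amounts, and most did not pass. In cortex 18 of 64 probes (28.1%) rose and 3 fell, where 14.6% of all tested probes rose and 16.3% fell. In striatum 16 of 64 (25.0%) rose and 2 fell, against 13.2% and 16.3% of all. The median member change was 0.17 log2 units in cortex and 0.16 in striatum, beside -0.01 and -0.04 for all tested probes. Above 0 lay 51 members in cortex and 53 in striatum, where 49.2% and 44.6% of all probes did. How far all tested probes shared their rises between the regions was not counted, so sharing is not read as particular to the members. Among members both regions shared 11 rising probes, which was 61.1% of the cortical list and 68.8% of the striatal one. Among them were Rps2, Rps3 (probe 3400615), Rps6, Rps13, Rps15a, Rps19, Rps27a, Rpl3, Rpl18 and Rpl29. The largest fold among them was 1.74. The authors' deposited ratios, which move the median of all probes by -0.08 in cortex and -0.18 in striatum, gave 7 higher and 4 lower in cortex and 3 of each in striatum. With these ratios 1131 of all 12758 probes were higher and 3074 lower in cortex, and 888 and 4716 in striatum. In striatum the share of members that rose was thus not above that of all probes.

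**Figure D1:**
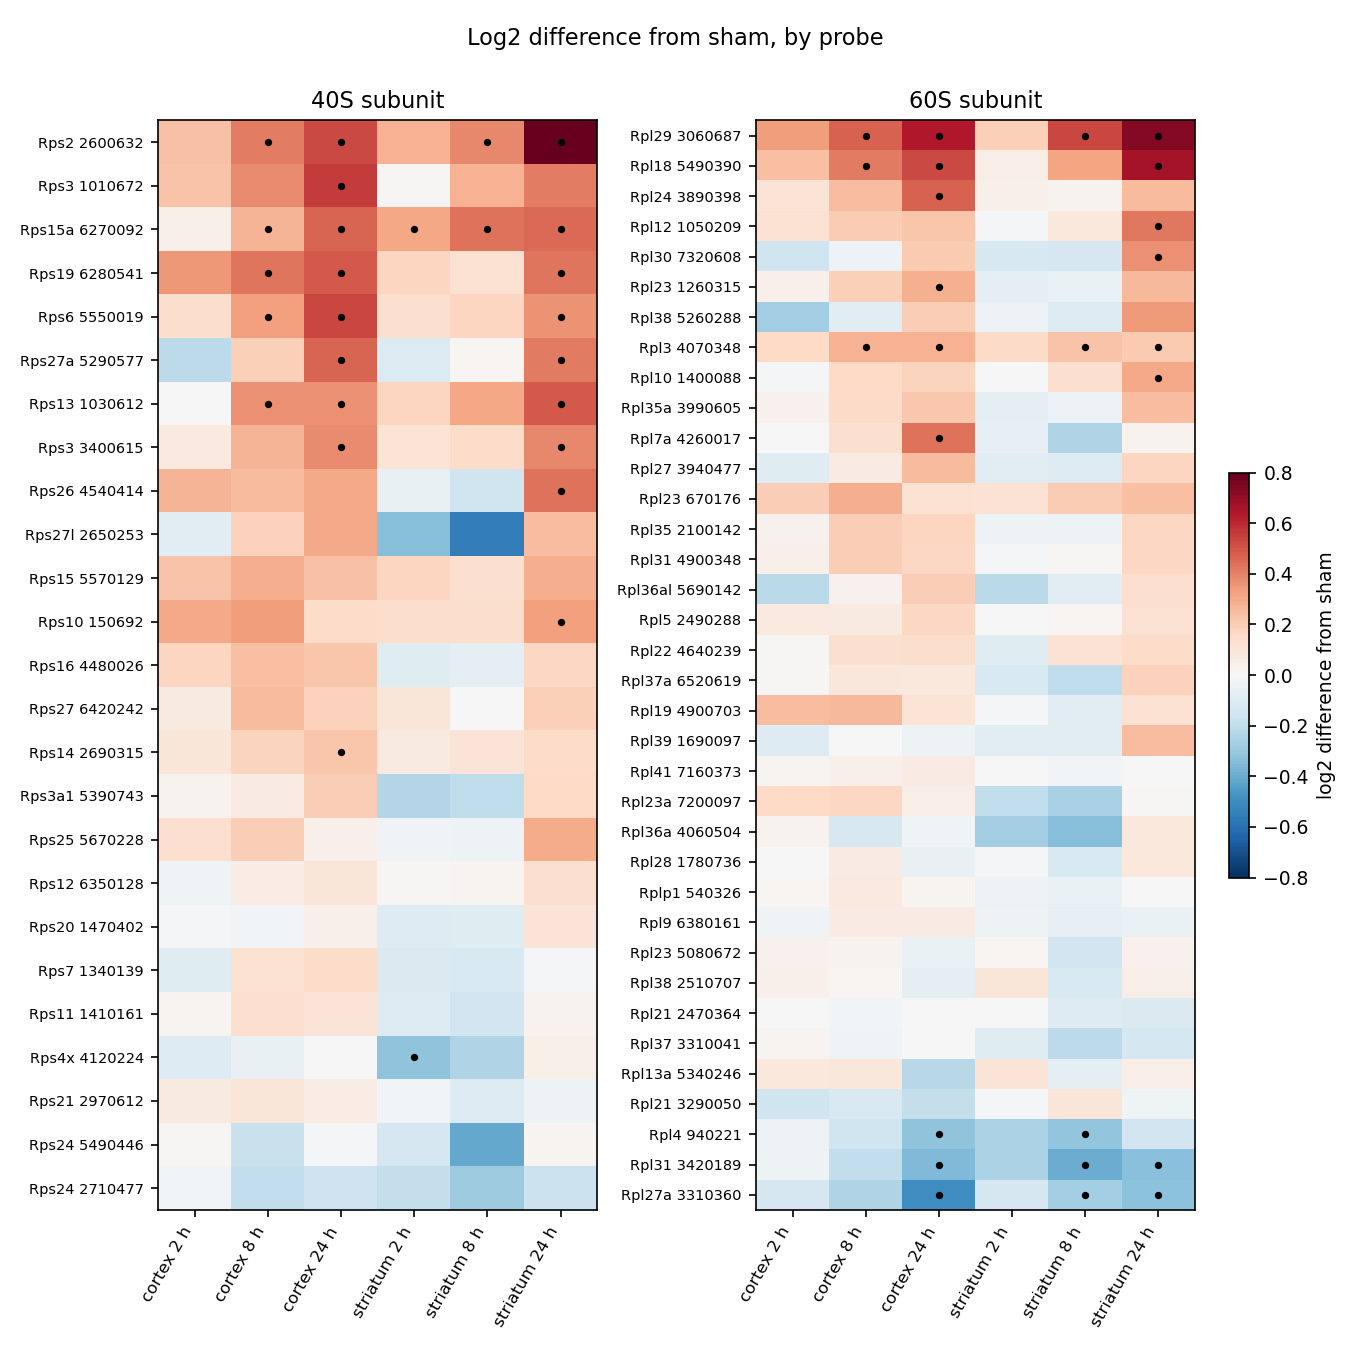
Log2 difference from sham for 61 of the 64 tested probes (rows, gene and probe number) in the 6 region and time groups (columns), 40S on the left and 60S on the right. Red is higher and blue lower than sham, dots mark adjusted p under 0.05, and rows are ordered by the mean change at 24 h. Most red cells with dots lie in the 24 h columns, and Rpl27a, Rpl31 (3420189), Rpl4 and, at 2 h in striatum, Rps4x carry the dots of probes that fell.

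Proteins of the 40S subunit made up most of the rise. In cortex 12 of 28 probes of this subunit rose at 24 h and 0 fell, with a median of 0.23, and in striatum 10 rose and 0 fell, with a median of 0.24. For the 60S subunit 6 of 36 probes rose and 3 fell in cortex (median 0.12), and 6 rose and 2 fell in striatum (median 0.13). The difference between the subunits was not tested. Values below are normalized log2 signals of arrays 1 to 4 of a group, and changes are log2 differences with the standard error (SE) and the adjusted p of limma.

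Rps2, a protein near the mRNA entry channel of the 40S subunit, showed the largest striatal change. In striatum its signal was 12.26, 12.36, 12.04 and 12.58 in sham and 12.87, 13.43, 13.10 and 13.04 at 24 h. All 4 arrays at 24 h lay above all 4 sham arrays, with a change of 0.80 (SE 0.13, 1.74-fold, limma adjusted p = 7.7e-05). In cortex sham arrays read 12.33, 12.16, 12.34 and 12.17, and arrays at 24 h 12.35, 13.01, 12.79 and 12.95. Here 3 of the 4 stood clearly apart, while replicate 1 lay just above the highest sham array. The cortical change was 0.53 (SE 0.13, 1.44-fold, limma adjusted p = 0.0038). Both calls held when any of the 32 arrays was left out.

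Rps6, the 40S protein phosphorylated by S6 kinases downstream of mTORC1, rose in both regions. Cortex sham arrays gave 11.58, 11.54, 11.71 and 11.67, and arrays at 24 h gave 11.79, 12.40, 12.20 and 12.24. The groups did not overlap, and the change was 0.53 (SE 0.10, 1.45-fold, limma adjusted p = 0.00035). In striatum sham arrays gave 12.31, 12.06, 12.01 and 12.35 and arrays at 24 h 12.47, 12.80, 12.45 and 12.45. All 4 again lay above sham, though replicate 2 stood apart from the others. That change was 0.36 (SE 0.10, 1.28-fold, limma adjusted p = 0.0094), and its call was lost without replicate 2 of striatum at 24 h. The striatal call was also lost with the authors' deposited ratios (0.12, limma adjusted p = 0.3).

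Rps15a, a protein of the 40S subunit, was raised at every time in striatum. Its sham arrays there read 10.01, 9.78, 9.89 and 9.86. At 2 h they read 10.20, 10.25, 10.24 and 10.08, at 8 h 10.49, 10.28, 10.28 and 10.23, and at 24 h 10.49, 10.22, 10.37 and 10.28. All 12 reperfusion arrays lay above all 4 sham arrays. The changes were 0.31 at 2 h, 0.44 at 8 h and 0.45 at 24 h (SE 0.09 each), with limma adjusted p of 0.039, 0.00097 and 0.0004. The call at 2 h was lost without any 1 of 6 of the arrays compared (replicates 1, 2 and 3 of either group), and the other 2 calls held on leaving out any array. With the authors' deposited ratios the changes at 2 h and 8 h did not pass (0.18 and 0.24, limma adjusted p = 0.2 and 0.059). Fitting each region alone also lost the call at 2 h (limma adjusted p = 0.061). In cortex the sham arrays read 9.65, 9.40, 9.67 and 9.59 and those at 24 h 9.93, 10.03, 9.96 and 10.26. These groups did not overlap either, with a change of 0.47 (limma adjusted p = 0.00029).

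Rps19, whose human gene is mutated in Diamond-Blackfan anaemia, read 12.41, 12.38, 12.33 and 12.33 in sham cortex and 12.48, 13.30, 12.82 and 12.79 at 24 h. Replicate 1 stood near sham and replicate 2 far above it. The change was 0.49 in cortex (1.40-fold, limma adjusted p = 0.0055) and 0.43 in striatum (1.34-fold, limma adjusted p = 0.014), the latter lost without replicate 2 of striatum at 24 h. Rps13 moved alike, with 11.32 to 11.41 in sham cortex against 11.33, 12.15, 11.76 and 11.67 at 24 h. In striatum it read 11.45 to 11.78 in sham and 11.89 to 12.39 at 24 h, without overlap. Its changes were 0.37 in cortex (limma adjusted p = 0.019), lost without replicate 2 at 24 h, and 0.49 in striatum (limma adjusted p = 0.0025). The authors' deposited ratios lost the striatal call of Rps13 (0.23, limma adjusted p = 0.086).

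Rps3, a 40S protein at the mRNA entry that also acts in DNA repair, had 2 probes. Probe 3400615 rose by 0.38 in both regions (limma adjusted p = 0.0068 in cortex and 0.0061 in striatum), and both calls held on leaving out any array. With the authors' deposited ratios its striatal call was lost (0.14, limma adjusted p = 0.29). Probe 1010672 gave 0.56 in cortex (limma adjusted p = 0.018) and 0.41 in striatum (limma adjusted p = 0.079, passing with slide as a block), so both probes pointed the same way.

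Rps27a encodes ubiquitin fused to a 40S protein, and it rose at 24 h in both regions. In cortex it read 9.47 to 9.68 in sham, 9.30 to 9.49 at 2 h, 9.52 to 9.97 at 8 h and 9.64 to 10.30 at 24 h. The change was -0.21 at 2 h (limma adjusted p = 0.38) and 0.47 at 24 h (1.38-fold, limma adjusted p = 0.0091). In striatum it was 0.41 at 24 h (limma adjusted p = 0.02), lost without replicate 2 or 4 of that group. Rps14 rose in cortex at 24 h (0.22), and Rps10 and Rps26 in striatum (0.33 and 0.43). Each of these 3 calls was lost on leaving out some single arrays, replicate 2 at 24 h of its region among them in every case.

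**Figure D2:**
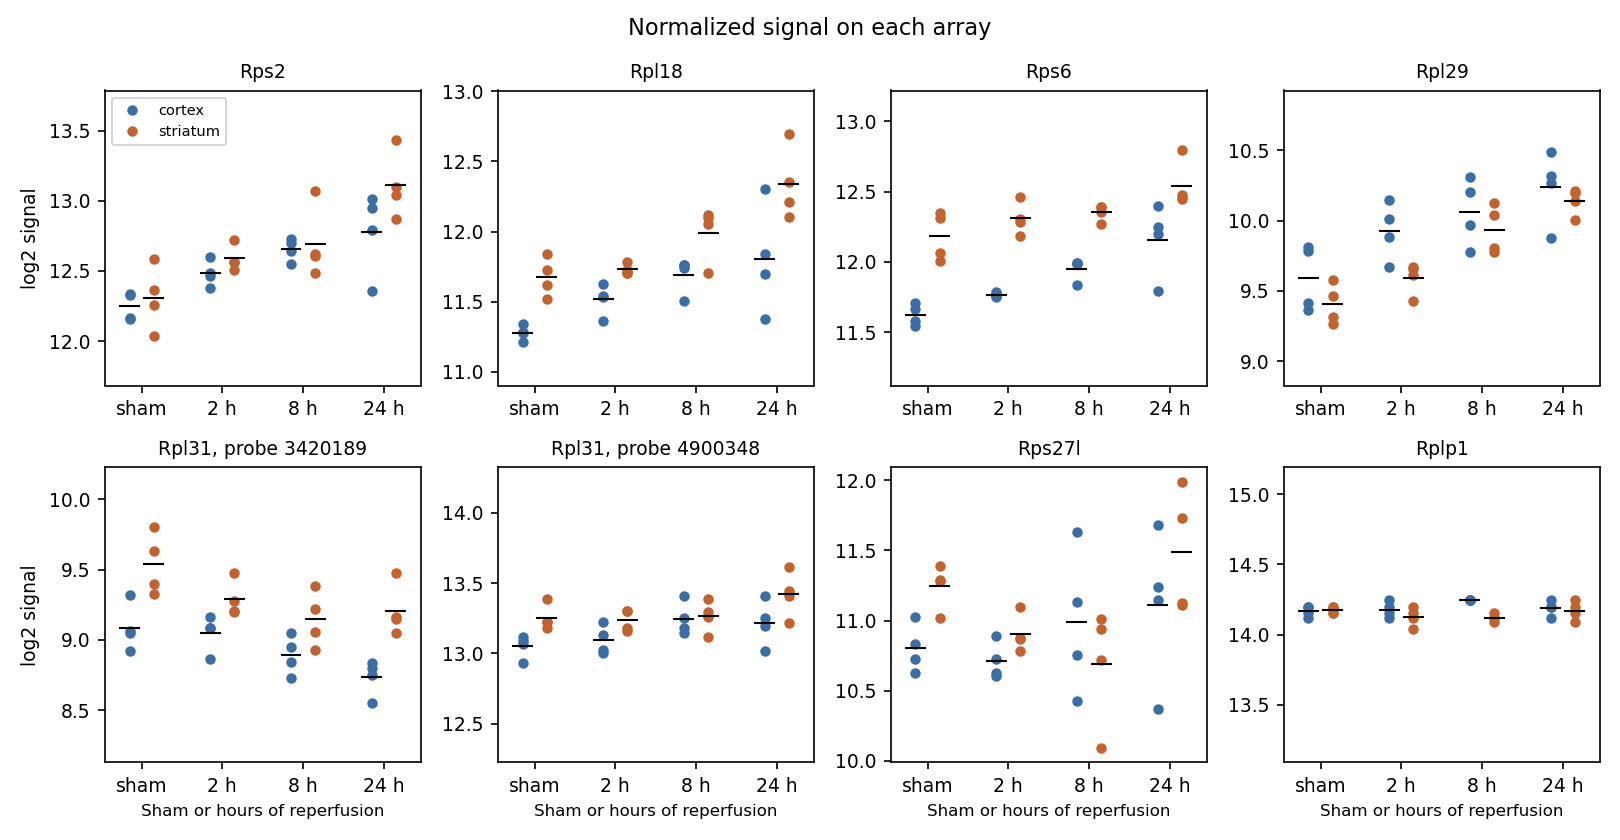
Normalized log2 signal of 8 probes on each of the 32 arrays (cortex blue, striatum orange), by sham or hours of reperfusion, with black bars at group means, and every panel spans the same log2 height. Rps2, Rpl18, Rps6 and Rpl29 climb to 24 h, the 2 probes of Rpl31 part from each other, Rps27l spreads widely at 8 h and 24 h, and Rplp1 stays flat between 14.04 and 14.24.

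Among proteins of the 60S subunit, Rpl29 and Rpl18 changed most. Rpl29, a surface protein of the 60S subunit that also binds heparin, read 9.37, 9.42, 9.81 and 9.78 in sham cortex and 9.87, 10.32, 10.27 and 10.49 at 24 h. In striatum it read 9.31, 9.27, 9.46 and 9.58 in sham, 9.77, 9.81, 10.13 and 10.04 at 8 h and 10.01, 10.21, 10.14 and 10.20 at 24 h. No reperfusion array at 8 h or 24 h in striatum, nor at 24 h in cortex, overlapped sham. At 24 h the changes were 0.64 (SE 0.13, 1.56-fold, limma adjusted p = 0.00067) and 0.73 (SE 0.13, 1.66-fold, limma adjusted p = 0.0002). Both held on leaving out any array, and replicate 1 of cortex at 24 h, which was near sham for many other members, was above sham here.

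Rpl18, a 60S protein, read 11.21, 11.27, 11.28 and 11.34 in sham cortex and 11.37, 12.31, 11.84 and 11.70 at 24 h. Striatal arrays read 11.62, 11.72, 11.52 and 11.84 in sham and 12.10, 12.69, 12.21 and 12.35 at 24 h. Groups did not overlap in either region, and replicate 2 was the highest in both. The changes were 0.53 (1.44-fold, limma adjusted p = 0.0044) and 0.66 (1.59-fold, limma adjusted p = 0.00059), and both held on leaving out any array. Rpl3, which lines the peptidyl transferase centre, rose less but tightly, from 13.08 to 13.38 in sham cortex to 13.47 to 13.54 at 24 h. Its changes at 24 h were 0.28 in cortex and 0.21 in striatum (limma adjusted p = 0.0044 and 0.025). The striatal call was lost without replicate 1 or 2 at 24 h or replicate 3 of sham. With the authors' deposited ratios neither region passed (0.10 in cortex and 0.04 in striatum, limma adjusted p = 0.35 and 0.71).

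Rpl24, part of a bridge between the subunits, rose in cortex alone by the calls, from 10.89 to 11.15 in sham to 11.08, 11.59, 11.54 and 11.65 at 24 h. The change was 0.47 (limma adjusted p = 0.0077) in cortex and 0.25 (limma adjusted p = 0.15) in striatum. Rpl7a changed by 0.43 in cortex (limma adjusted p = 0.033) and by 0.03 in striatum, and its cortical call was lost without replicate 2, 3 or 4 at 24 h or replicate 1, 3 or 4 of sham. The difference between the regions was -0.41 for Rpl7a and did not pass (limma adjusted p = 0.61). In striatum Rpl10, Rpl12 and Rpl30 rose by 0.30, 0.42 and 0.36, and each call was lost without replicate 2 at 24 h. Rpl5, which with Rpl11 and 5S RNA binds the p53 inhibitor Mdm2, gave 0.16 in cortex and 0.12 in striatum, and neither passed.

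The acidic stalk protein Rplp1 showed no change that passed in any comparison. Its probe read 14.04 to 14.24 on all 32 arrays and was the brightest probe of the whole array on 7 of them, so it sits at the end of the distribution that quantile normalization makes equal between arrays. Its raw signal ran from 13899 to 23841. Rplp0, the stalk's base, stands on the array under an older name and is taken up with the other renamed genes.

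The probes that fell at 8 h or 24 h belonged to the 60S subunit. Rpl27a, a 60S protein, read 10.51, 10.47, 10.38 and 10.35 in sham cortex, 10.37, 10.25, 10.01 and 10.12 at 8 h and 9.85, 9.79, 10.01 and 10.08 at 24 h. All 4 arrays at 24 h lay below all sham arrays, with a change of -0.50 (SE 0.09, limma adjusted p = 0.00025). In striatum sham arrays read 10.75, 10.81, 10.50 and 10.54 and arrays at 24 h 10.14, 10.44, 10.38 and 10.33, again without overlap. The striatal changes were -0.27 at 8 h and -0.33 at 24 h (limma adjusted p = 0.035 and 0.0091). The calls at 24 h held on leaving out any array, while that at 8 h was lost without replicate 3 or 4 at 8 h or replicate 1 or 2 of sham.

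Rpl31, at the exit of the nascent-chain tunnel, had 2 probes that parted. Probe 3420189 fell in cortex from 9.32, 9.05, 9.06 and 8.92 in sham to 8.80, 8.55, 8.75 and 8.83 at 24 h. In striatum it read 9.33 to 9.81 in sham, 8.93 to 9.39 at 8 h and 9.05 to 9.48 at 24 h. Its changes were -0.35 in cortex at 24 h, and -0.40 and -0.33 in striatum at 8 h and 24 h (limma adjusted p = 0.024, 0.017 and 0.033). Probe 4900348 gave 0.17 in both regions at 24 h (limma adjusted p = 0.18 each) and passed nowhere against sham. The calls of the former were each lost on leaving out some single arrays, replicate 1 of sham in all 3. Which transcript each probe reads is not given in the sources used here.

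Rpl4, whose long loop reaches into the exit tunnel, fell in cortex at 24 h, from 8.64 to 9.05 in sham to 8.44 to 8.69, and in striatum at 8 h, from 8.70 to 9.06 to 8.45 to 8.79. The changes were -0.32 and -0.31 (limma adjusted p = 0.031 and 0.042). Both pairs of groups overlapped, and each call was lost on leaving out some single arrays, replicate 1, 2 or 3 of sham among them. Rpl23, which had 3 probes, gave 0.28, 0.12 and -0.05 in cortex at 24 h, and only the first (probe 1260315) passed. Its call was lost without 7 of the 8 arrays compared, each in turn.

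At 2 h the members as a group stood close to sham, with 43 above 0 in cortex and 23 in striatum, where 47.3% and 49.1% of all probes were. In cortex 0 of 64 passed in either direction, against 2.05% of all probes higher and 2.23% lower, and 6 were higher and 1 lower at an unadjusted p under 0.05. The 2 largest cortical changes were 0.35 for Rps19 and 0.33 for Rpl29 (limma adjusted p = 0.11 and 0.14), and Rpl29 passed with slide as a block. In striatum, where 2.99% of all probes rose and 2.7% fell, 1 member rose (Rps15a) and 1 fell. The one that fell was Rps4x, an X-linked 40S protein, from 13.00, 12.93, 13.00 and 12.80 in sham to 12.55, 12.60, 12.55 and 12.74. The groups did not overlap, and the change was -0.32 (limma adjusted p = 0.039), lost without replicate 1, 2 or 3 of either group. By 24 h Rps4x was back at 12.85 to 13.16.

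At 8 h the regions looked different, but the difference did not pass a test. In cortex 8 members rose and 0 fell (12.5%, against 8.84% of all probes higher and 9.92% lower), with a median of 0.14 and 50 above 0 (47.8% of all). They were Rps2, Rps6, Rps13, Rps15a, Rps19, Rpl3, Rpl18 and Rpl29, all of which had also risen at 24 h. Rpl29 had the largest change (0.47, limma adjusted p = 0.015), followed by Rps19 (0.43), Rpl18 (0.41), Rps2 (0.41) and Rps13 (0.36). The count was 2 to 8 on leaving out single arrays, and 13 with slide as a block. It was 2 without replicate 2 of sham or of 8 h, 3 without replicate 3 of 8 h, and 4 without replicate 1 of either group. Only the call of Rpl3 held on leaving out any array. It was lost with scaling to the 75th percentile (limma adjusted p = 0.089) and with the authors' deposited ratios (0.05, limma adjusted p = 0.69).

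In striatum at 8 h 4 members rose and 3 fell (6.25% and 4.69%, against 11.0% and 12.1% of all probes), with a median of -0.06 and 26 above 0 (48.6% of all). Rps15a, Rpl29, Rps2 and Rpl3 rose (0.44, 0.53, 0.38 and 0.23), and Rpl27a, Rpl31 (3420189) and Rpl4 fell. The calls of Rps15a and Rpl29 held on leaving out any array. Replicate 4 had the lowest member median of this group, and without it 4 rose, 0 fell and the median was above that of all probes by 0.05. The 3 falls were also lost without replicate 3 of 8 h or replicate 1 or 2 of sham. The authors' deposited ratios, with the median of all probes at -0.13, gave 1 higher and 18 lower here, and 1 of each in cortex. With these ratios 3581 of all 12758 probes were lower in striatum at 8 h, a share like that of the members, and 644 were higher. In cortex at 8 h 683 of all probes were higher and 2561 lower.

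The striatal response at 8 h was lower than the cortical one for 61 of 64 members, where 50.3% of all probes were above 0, with a median difference of -0.16. None passed (limma, 0 of 64; 3 lower and 0 higher at an unadjusted p under 0.05), nor did any of the 12758 probes. At 2 h and 24 h the median differences were -0.08 and 0.01, and 0 members passed (1 higher and 1 lower, and 0 either way, at an unadjusted p under 0.05), beside 0.00784% of all probes lower at 24 h. The largest single differences were -0.36 for Rpl23a and -0.33 for Rps26 at 2 h, -0.74 for Rps27l and -0.43 for Rpl23a at 8 h, and -0.41 for Rpl7a and 0.29 for Rpl39 at 24 h. The median difference at 8 h relative to all probes ran from -0.21 to -0.11 on leaving out single arrays. The count depended on the processing. Scaling to the 75th percentile put 17 of 64 members above 0 at 8 h (median -0.11), array weights 9 (-0.12) and the authors' deposited ratios 6 (-0.16).

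Between successive times, changes were small. In cortex 0 members passed from 2 h to 8 h or from 8 h to 24 h, against 1.43% and 3.26% of all probes higher and 1.37% and 3.39% lower; at an unadjusted p under 0.05, 5 rose and 0 fell in the first step and 2 rose and 2 fell in the second. The largest cortical steps were 0.40 for Rps27a and 0.36 for Rps13 to 8 h (limma adjusted p = 0.089 and 0.083), then -0.31 for Rpl13a and 0.30 for Rpl7a (limma adjusted p = 0.11 and 0.23). In striatum 0 passed from 2 h to 8 h (0.69% of all higher and 0.776% lower), with 2 higher and 1 lower at an unadjusted p under 0.05. The largest steps there were 0.34 for Rpl29 and -0.28 for Rps24 (limma adjusted p = 0.18 and 0.4), and Rpl29 passed with slide as a block. From 8 h to 24 h 60 of 64 striatal members were above 0, where 44.4% of all probes were, with a median of 0.20. The 3 that rose (4.69%, against 4.15% of all, with 2.97% of all lower) were Rps27l, Rps26 and Rpl30.

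Rps27l, a p53-induced relative of Rps27, had the widest spread among them. In striatum it read 10.94, 11.01, 10.72 and 10.09 at 8 h and 11.12, 11.99, 11.11 and 11.73 at 24 h. The groups did not overlap, and the step was 0.80 (SE 0.24, 1.74-fold, limma adjusted p = 0.035). Rps26 read 11.79, 11.84, 11.72 and 11.16 and then 12.03, 12.46, 12.10 and 12.29, a step of 0.59 (limma adjusted p = 0.0098). Rpl30, which in yeast regulates its own splicing, gave a step of 0.50 (limma adjusted p = 0.023). In all 3, replicate 4 was the lowest array at 8 h and replicate 2 the highest at 24 h. None of the 3 calls held without replicate 2 of 24 h or without replicate 4 of 8 h. Over all 64 members, 0 passed without the former, 1 other member passed without the latter, and 6 passed with slide as a block.

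**Figure D3:**
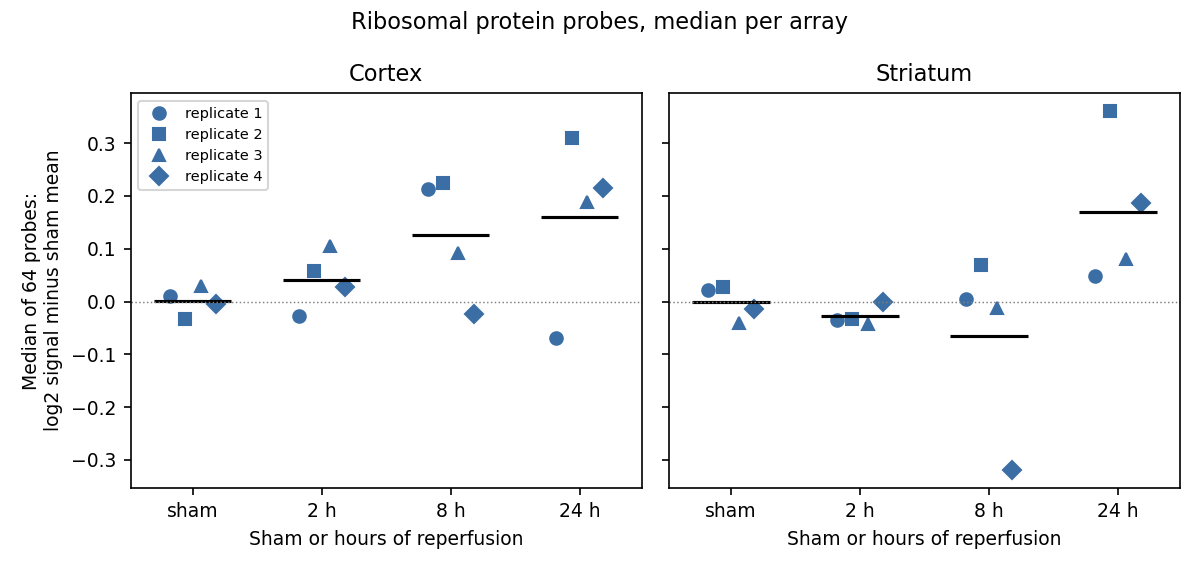
Median over the 64 probes of the log2 signal minus the sham mean of its region, for each array (symbols give replicate 1 to 4, bars the mean of 4 arrays), by sham or hours of reperfusion. Sham arrays lie between -0.04 and 0.03, and at 24 h replicate 2 is highest in both regions (0.31 and 0.36), while replicate 4 of striatum at 8 h is lowest (-0.32).

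Arrays of 1 group differed in the size of the response. The member median relative to sham was -0.07, 0.31, 0.19 and 0.22 for replicates 1 to 4 of cortex at 24 h, and 0.05, 0.36, 0.08 and 0.19 for striatum at 24 h. At 8 h it was 0.21, 0.22, 0.09 and -0.02 in cortex, and 0.00, 0.07, -0.01 and -0.32 in striatum. Replicate 1 of cortex at 24 h thus lay at or below the sham arrays, and replicate 4 of striatum at 8 h far below them. Taken within slides, the cortical medians at 24 h were -0.07, 0.37, 0.15 and 0.16, above 0 on 3 of 4 slides. The striatal ones were 0.03, 0.34, 0.13 and 0.19, above 0 on 4 of 4. At 8 h the medians within slides ran from -0.01 to 0.31 in cortex and from -0.25 to 0.07 in striatum, above 0 on 3 of 4 slides each.

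Counts at 24 h moved with single arrays. In cortex 26 members rose without replicate 1 of 24 h, 10 without replicate 2, 11 without replicate 4 and 11 without replicate 1 of sham. Leaving out replicate 1 of 24 h together with replicate 4 of 8 h, which was chosen after seeing the data, gave 28 higher at 24 h and 13 at 8 h. Of all 12758 probes 2106 and 1326 were then higher, against 1864 and 1128 in the main fit. In striatum 6 rose without replicate 2 of 24 h, 10 without replicate 4 and 10 without replicate 3 of sham. The falls in cortex at 24 h were 1 without replicate 2 of 24 h or replicate 1 of sham. Of the rises at 24 h, 10 of 18 in cortex and 6 of 16 in striatum held on leaving out any 1 of the 32 arrays. The share of calls kept in this way was not counted over all tested probes, so it is not read as particular to the members.

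Markers of other cell types moved on the same arrays. At 24 h in cortex the summed linear signal of 7 tested probes for myeloid cells from blood was 1724, 8007, 2728 and 9021, against 1264 to 1787 in sham, and in striatum 4046, 10671, 3797 and 8383, against 1803 to 2063. The arrays with the highest sums were replicates 2 and 4 in both regions, and replicate 1 of cortex was near sham. The summed signal of 13 neuronal probes was 54741, 39781, 45221 and 46509 in cortex at 24 h, against 53772 to 59427 in sham. Replicate 1 was again closest to sham and replicate 2 farthest. In striatum at 24 h the neuronal sum was 28106 to 32974, against 35090 to 38197 in sham, lowest in replicate 2.

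By gene, 6 of 7 myeloid probes rose at 24 h in cortex and 7 of 7 in striatum, led by S100a8 (10.7-fold and 12.7-fold) and S100a9, proteins of neutrophils and monocytes, with Ccr2 too rarely detected to be tested. Neuronal probes fell in 5 of 13 cases in cortex and 4 of 13 in striatum, with Gad2 and Snap25 not tested. Endothelial probes rose in 3 of 6 cases in each region, with sums at 24 h of 1398 to 3085 in cortex and 1990 to 2730 in striatum against 1224 to 1506 and 1419 to 1600 in sham. Microglial probes fell in 6 of 11 cases in each region and rose in 0 and 1. Astrocyte probes rose in 4 of 11 cases in cortex and 2 of 11 in striatum, and oligodendrocyte probes in 4 of 13 and 1 of 13. Of all tested probes 14.6% rose in cortex and 13.2% in striatum at 24 h, and 16.3% fell in each. The striatal counts of astrocyte and oligodendrocyte probes that rose lie near or below that share. Of 6 lymphocyte probes 1 was tested, and Cd3d, Cd79a, Cd79b and Ms4a1 were not. The part of these cells in the members' changes was not tested.

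Replicate 4 of striatum at 8 h also stood apart in striatal neuron markers. The summed signal of 8 probes for striatal projection neurons was 2084, 3838, 2872 and 10262 at 8 h, against 5807 to 7266 in sham. At 24 h it was 2511, 5813, 2458 and 3863. Among the haemoglobin and erythroid probes, sums at 24 h ran from 332 to 14461 in cortex and from 448 to 12561 in striatum, highest in replicate 4 of each. Their part in the members' changes was not tested.

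**Figure D4:**
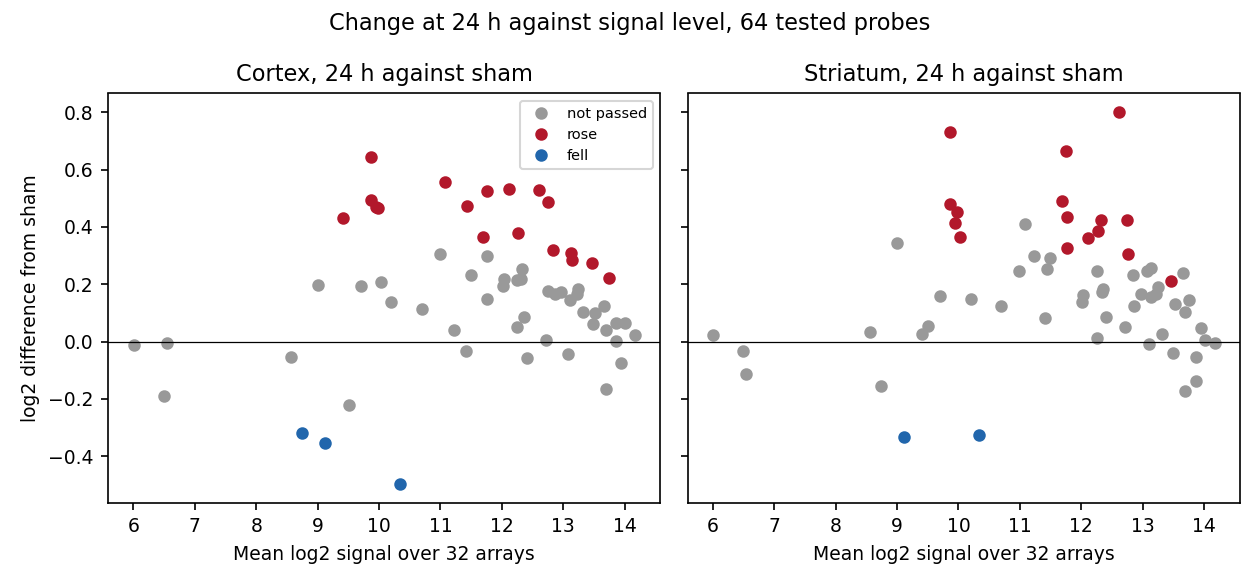
Log2 difference from sham at 24 h (y axis) against the mean log2 signal over 32 arrays (x axis) for the 64 tested probes, cortex left and striatum right; red points rose, blue points fell and grey points did not pass. Points spread between -0.50 and 0.80 at signals under 13 and stay between -0.17 and 0.31 at or above it.

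Median changes were small among both the brightest and the dimmest members. Among the 19 member probes with a mean log2 signal of 13 or more, the median change at 24 h was 0.10 in both regions, and 4 rose in cortex and 1 in striatum. Among the 17 between 12 and 13 the medians were 0.21 and 0.18, with 5 and 6 rising. The 14 between 10 and 12 gave medians of 0.22 and 0.29, with 4 rising and 1 falling in cortex and 5 and 1 in striatum. The 14 under 10 gave medians of 0.10 and 0.04, with 5 rising and 2 falling in cortex and 4 and 1 in striatum. From the brightest class to the dimmest, 21.1%, 29.4%, 28.6% and 35.7% rose in cortex, against 14.6% of all probes. In striatum 5.26%, 35.3%, 35.7% and 28.6% rose, against 13.2% of all. Every class held fewer than 20 probes. Member probes were among the brightest of the array: 56 of 64 lay above the 90th percentile of mean signal and 33 above the 99th. Rpl41, Rpl38 (2510707) and Rpl9 read 13.46 to 14.15 throughout, and none of them passed in a comparison with sham.

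In sham animals some ribosomal protein messages were higher in striatum than in cortex and most did not pass. Of 64 members 23 (35.9%) were higher, 0 lower and 41 not called, against 17.3% and 15.9% of all probes, with a median of 0.22, and 58 were above 0, where 50.2% of all probes were. The 40S subunit gave 12 of 28 and the 60S subunit 11 of 36. Rpl24 differed most, with 10.89 to 11.15 in cortex and 11.43 to 11.68 in striatum (0.61, SE 0.13, limma adjusted p = 0.00061). Rps6 read 11.54 to 11.71 in cortex and 12.01 to 12.35 in striatum (0.56, SE 0.10, limma adjusted p = 9.5e-05), and Rps3a1 differed by 0.52 (limma adjusted p = 0.01). In these 3 genes the sham groups of the regions did not overlap, Rps3a1 reading 9.20 to 9.70 in cortex and 9.72 to 10.07 in striatum. Region and slide cannot be told apart, and markers of several cell types differed between the same arrays. Of the oligodendrocyte probes 10 of 13 were higher and 1 lower in striatum, with summed signals of 49727 to 51607 against 34710 to 36069 in cortex. Of the neuronal probes 9 of 13 were lower and 0 higher, with sums of 35090 to 38197 against 53772 to 59427. Microglial sums were 2151 to 2471 against 2526 to 2802, and myeloid sums 1803 to 2063 against 1264 to 1787, none of them overlapping. The part of these cells in the difference was not tested.

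Most paralogs and their partners gave no change that passed against sham. Rps27l gave 0.31 in cortex and 0.24 in striatum at 24 h and Rps27 0.18 and 0.19, and none passed. Rpl36al gave 0.19 and 0.14 and Rpl36a -0.03 and 0.08. Rpl39 gave -0.04 and 0.25, and Rpl22, which is known to bind RNA outside the ribosome, 0.14 and 0.15. Rpl10, the 60S protein that completes subunit maturation, passed in striatum alone, as given above. Of the p53 targets, 11 of 26 probes rose and 2 fell in cortex at 24 h (42.3% higher, against 14.6% of all probes), and 9 rose and 2 fell in striatum (34.6%, against 13.2%), with a Cdkn1a probe (3130630) 2.32-fold higher in cortex.

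Some ribosomal proteins sit on the array under older names and so lie outside the rule. They were listed after the files had been seen. Of 13 tested probes for Rplp0, Rpsa, Rps9, Rpl34, Rpl22l1, Rpl7l1, Rps4l, Fau and Rack1, 5 rose in cortex and 6 in striatum at 24 h, and 0 fell (38.5% and 46.2% higher, against 14.6% and 13.2% of all probes). At 8 h 2 rose in cortex and 1 in striatum. The last was Rps4l, a relative of Rps4x, with 0.67 at 8 h (1.59-fold, limma adjusted p = 0.002) and 0.14 at 24 h, which did not pass. Rplp0, the base of the stalk, rose by 0.41 and 0.54 (limma adjusted p = 0.021 and 0.0032). Rps9 had 4 probes, of which the 3 that passed gave 0.32 to 0.44 in cortex and 0.30 to 0.41 in striatum. Fau, a ubiquitin-like protein fused to Rps30, rose by 0.41 and 0.39 (limma adjusted p = 0.015 and 0.021). Rpl7l1 (1660154) rose in striatum alone by the calls (0.29), and Rpl22l1 gave -0.33 and -0.34 without passing (limma adjusted p = 0.25 and 0.24). Rpsa, the laminin receptor of the 40S subunit, gave 0.22 and 0.05 and did not pass.

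Companion genes of translation were counted in the same fit. Of 30 probes for elongation factors and other TOP messages, 12 rose and 3 fell in cortex at 24 h (medians 0.15), and 9 rose and 1 fell in striatum (0.05), against 14.6% and 13.2% of all probes higher. Btf3, of the nascent polypeptide-associated complex, rose by 0.54 and 0.59 (limma adjusted p = 0.00012 and 5e-05). Npm1, a nucleolar chaperone whose message also carries a TOP tract, fell in striatum by 0.46 at 2 h and 0.52 at 8 h. Of 37 probes for initiation factors, 13 rose and 3 fell in cortex and 14 rose and 1 fell in striatum at 24 h (35.1% and 37.8% higher, against 14.6% and 13.2% of all probes). At 8 h 14 rose and 0 fell in cortex, and 15 rose and 3 fell in striatum (37.8% and 40.5% higher, against 8.84% and 11.0%). Eif4a1, the helicase that unwinds messages, rose 1.80-fold and 1.99-fold at 24 h.

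Of 73 probes for ribosome biogenesis 18 rose and 3 fell in cortex at 8 h, and 14 rose and 5 fell at 24 h. In striatum 15 rose and 3 fell at 8 h, and 21 rose and 1 fell at 24 h. The shares that rose were 24.7% and 19.2% in cortex and 20.5% and 28.8% in striatum, against 8.84%, 14.6%, 11.0% and 13.2% of all probes. Ddx21, a nucleolar helicase, rose 1.68-fold and 1.95-fold at 24 h, and Nop14, of the small subunit processome, 1.67-fold and 1.80-fold. Of 88 probes for mitochondrial ribosomal proteins, which serve another ribosome, 15 rose and 13 fell in cortex at 24 h and 15 rose and 8 fell in striatum. Their medians were 0.06 and -0.00, and Mrpl2 led with 1.87-fold and 1.85-fold. These shares lie near those of all probes, 14.6% and 13.2% higher.

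Among regulators of ribosomal protein message translation, some changes were over 1 log2 unit. Eif4ebp1, a repressor of cap-dependent translation under mTORC1, rose by 0.94 in cortex and 1.71 in striatum at 24 h (limma adjusted p = 0.015 and 9.9e-05). Its relative Eif4ebp2, the main form in brain, fell by 1.54 and 1.06 (limma adjusted p = 2e-05 and 0.00092). Ddit4, a stress-induced inhibitor of mTORC1, rose by 1.27 in cortex and 0.88 in striatum at 2 h (limma adjusted p = 0.001 and 0.01). In all, 4 of 17 probes rose and 4 fell in cortex at 24 h, and 3 rose and 6 fell in striatum (23.5% and 17.6% higher, against 14.6% and 13.2% of all probes). Of all probes 16.3% fell in each region, and in striatum more of these 17 fell than rose.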

How the data were processed

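Total RNA from right cortex and striatum was biotin-labelled and hybridised to Illumina MouseRef-8 V2 arrays, per the labels' protocols, with 4 arrays in each of 8 groups. The deposited profiles hold probe intensity exported by BeadStudio 3.3.7 with normalization set to none, per the file headers. Each signal has a deposited detection value, a fraction that nears 1 for bright probes (1 minus its p-value). The authors' deposited table divides each signal by the sham mean of the same region (a linear ratio), with its normalization not given in the sources used here; it served as an alternative. A deposited raw table holds the same intensity values under mirrored replicate numbers and gave only probe identifiers.

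Intensities were background-corrected, quantile normalized and taken to log2 with neqc of limma 3.58.1 (offset 16, R 4.3.3), so log2 values here are computed from the deposited intensity. Testing took the 12758 probes that were detected (p-value under 0.01) on 4 or more arrays, each probe on its own. One limma model (lmFit, eBayes) of 8 groups gave 14 two-sided comparisons, with Benjamini-Hochberg adjustment over all tested probes within each and a threshold of 0.05. The code was tested on simulated data. Tables and figures used Python 3.11.15, pandas 2.3.3, numpy 2.4.6 and matplotlib 3.10.9.

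Members and lists were chosen with earlier results of these data known, and lists carry no test. Named members were the 5 highest and 5 lowest that passed against sham, the 3 highest and lowest that passed between times or regions, the 2 largest where none passed, and paralogs, stalk proteins, Rps6 and Rpl5. Other members are named where a count is spelled out. Within regions, arrays with the same replicate number deviated together, over a correlation of 0.1, in 18 of 24 cortical pairs and 8 of 24 striatal pairs. Among pairs with different numbers 11 of 72 did so in each region. The median correlations were 0.15 against -0.06 in cortex and 0.07 against -0.04 in striatum. Arrays of the same number thus shared deviations, more clearly in cortex, and the main model has no term for this. By the array codes each number is 1 slide within a region, so results with slide as a fixed block are given where they change a call or a count by over 1.5 times. No slide holds both regions, so the sham regions have no such fit. Alternatives changed the normalization, background correction, detection filter, spread model, array weights, probe choice, regions fitted and arrays left out. Values of some single members are not reported here. The number of arrays limits the precision.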

Additional observations from a re-analysis of the deposited data

Results flagged for a closer look

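Gaps of 1 array from the other 3 were looked for in 176 groups of 4 arrays (21 member probes and the member median in 8 groups), by Dixon's critical value, and 5 were found. Chance gives about 1 in 20. Replicate 4 of cortex at 8 h was low for Rpl18 (11.51, others 11.74 to 11.76) and for Rps6 (11.84, others 11.99). Rpl24 in striatum sham read 11.43 in replicate 3, against 11.64 to 11.68. Rpl18 in striatum at 8 h read 11.70 in replicate 4, against 12.05 to 12.12. Rps6 in striatum at 24 h read 12.80 in replicate 2, against 12.45 to 12.47. In 66 checks, no member moved one way on every array of a region and the other way on every array of the other.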

How the results depend on the processing

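No result changed direction in a way that reversed a call, and 748 of the compared counts and medians stayed within the set bounds while 80 moved. Leaving out 1 array of the groups compared at a time gave 10 to 26 members higher and 1 to 3 lower in cortex at 24 h, 2 to 8 and 0 to 1 at 8 h, and 6 to 19 higher and 1 to 2 lower in striatum at 24 h, 2 to 5 and 0 to 6 at 8 h, and 0 to 1 each way at 2 h. Steps gave 0 to 1 higher for cortex 2 h to 8 h, 0 to 4 higher and 0 to 1 lower for cortex 8 h to 24 h, and 0 to 9 higher for striatum 8 h to 24 h; sham regions gave 15 to 21 higher. Member medians less that of all probes ran from 0.09 to 0.27 in cortex at 24 h, 0.11 to 0.21 at 8 h and 0.03 to 0.07 at 2 h, from 0.13 to 0.27, -0.09 to 0.05 and -0.04 to -0.01 in striatum, from -0.04 to 0.12 and 0.14 to 0.29 for the steps from 8 h to 24 h, 0.05 to 0.13 and -0.05 to 0.08 for those from 2 h to 8 h, from -0.05 to 0.08, -0.21 to -0.11 and -0.10 to -0.07 for the regional responses at 24 h, 8 h and 2 h, and 0.19 to 0.24 in sham.

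With the replicate number as a block, 13 members rose in cortex at 8 h and 1 at 2 h, 1 rose from 2 h to 8 h and 6 from 8 h to 24 h in striatum, and no other count moved by over 1.5 times; the sham regions share no slide and have no value with this block. Among named members this block lost no call and gained 3 (Rpl29 in cortex at 2 h and from 2 h to 8 h in striatum, and Rps3 1010672 in striatum at 24 h). The authors' deposited ratios gave 0 higher and 8 lower in cortex at 2 h, 1 and 1 at 8 h, and 7 and 4 at 24 h. In striatum they gave 0 and 4, 1 and 18, and 3 and 3. Of all 12758 probes they gave 198 higher and 2292 lower, 683 and 2561, and 1131 and 3074 in cortex. In striatum the counts of all probes were 222 and 1439, 644 and 3581, and 888 and 4716. From 2 h to 8 h in cortex 1 member was higher, beside 295 of all probes. Among named members these ratios lost 19 calls and gained 6. Array weights gave 6 higher and 2 lower in cortex at 2 h, 13 higher at 8 h, and 2 higher and 4 lower in striatum at 2 h. They also raised the calls over all 12758 probes, with 965 higher and 1173 lower in cortex at 2 h. The counts of all probes were 1226 higher in cortex at 8 h, and 1449 higher and 1525 lower in striatum at 2 h. Fitting each region alone gave 4 higher in cortex at 8 h, 0 each way in striatum at 2 h and 1 lower at 24 h; 1 probe per name also gave 1 lower there. Scaling to the 75th percentile gave 4 higher in cortex at 8 h and 7 in striatum from 8 h to 24 h, where no background correction gave 7, a trended robust spread 9 and no detection filter 1 lower. Leaving out both cortex arrays that stood apart, chosen after seeing the data, gave 13 higher at 8 h, 28 at 24 h and 2 in each cortical step; through the shared estimate of spread it also gave 11 higher from 8 h to 24 h and 5 lower at 8 h in striatum. The cause was not tested in any of these.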
